A study of Danio rerio with 12 samples.

Results

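The genes described here are the 237 genes whose transcripts were lower in every zebrafish library without Zbtb24 than in every library with it, whether or not the RNA sensor Mda5 was also missing. They came from a table of 32271 features in 12 libraries, given as FPKM, a read density corrected for transcript length and library size. Among the 19424 features that averaged 1 FPKM or more, a member had its highest value among the 6 *zbtb24* mutant libraries below its lowest value among the other 6. That was 1.22% of those features, and 295 features (1.52%) were separated the opposite way. The *zbtb24* comparison chose these genes, so their differences between *zbtb24* genotypes are given as descriptions and without a test. Changes are given for each background in turn, first in *mda5* WT larvae (*zbtb24* mutant minus WT) and then in *mda5* mutant larvae (double minus *mda5* mutant), as differences of mean log2(FPKM + 0.5).

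The larvae were 3 weeks old and fell into 4 genotypes: WT at both genes, *mda5* mutant (mk29/mk29, WT for *zbtb24*), *zbtb24* mutant (mk22/mk22, WT for *mda5*) and double mutant (homozygous for both alleles). Both alleles are germline deletions carried by every cell, and mk22 takes out coding exons of *zbtb24*. Each genotype had 3 libraries of polyadenylated RNA, each from a pool of 10 larvae. The sources do not say that pools came from separate crosses, so every p-value below measures only the spread between these pools. The sample labels name fin as the source, whereas the series' design describes whole larvae. Transcripts of the lens and of rod photoreceptors were present in all 12 libraries, with summed crystallin values from 2062 to 19981 FPKM and summed rod gene values from 358 to 1208 FPKM. In pooled whole-animal RNA, fewer cells of a type and less RNA per cell cannot be told apart.

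ZBTB24 is a zinc finger protein with a BTB domain that binds DNA and regulates transcription. In people, mutations of *ZBTB24*, of the methyltransferase gene *DNMT3B*, of *CDCA7* or of the chromatin remodeler gene *HELLS* cause ICF syndrome, named for immunodeficiency, centromere instability and facial anomalies, in which satellite DNA next to centromeres is poorly methylated. A tissue that recurs below is the lens, a ball of transparent fiber cells packed with crystallins, the soluble proteins that give it its refractive power. Fish lenses hold a large family of gamma M crystallins, whose genes are present in many similar copies.

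The targeted genes were examined first. *ZBTB24* (gene symbols are printed as the gene table gives them, several in capitals) was measured at 0.348, 0.510 and 0.587 FPKM in WT and at 0.469, 0.538 and 0.477 FPKM in *mda5* mutants. It was at 1.74, 1.40 and 1.06 FPKM in *zbtb24* mutants and at 1.40, 1.23 and 1.47 FPKM in double mutants, so the mutant libraries were higher. A value for the whole gene does not resolve the deleted exons, so it does not check the deletion, and every direction below follows the genotype labels. *IFIH1*, the gene for Mda5, was between 0.732 and 0.820 FPKM in WT and between 0.354 and 0.613 FPKM in *mda5* mutants, and the 2 genotypes did not overlap. It was between 1.35 and 1.87 FPKM in *zbtb24* mutants and between 0.381 and 0.573 FPKM in double mutants. Of the 19424 features averaging 1 FPKM or more, 13.3% had all *mda5* mutants below all WT, so the gap is not by itself a check of the genotype.

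*CDCA7* (ENSDARG00000077620), an ICF gene whose product works with the HELLS remodeler, had the widest ratio between the 2 sets of libraries of all 237 genes. It was at 3.48, 2.56 and 3.17 FPKM in WT and at 2.60, 2.83 and 2.53 FPKM in *mda5* mutants. In *zbtb24* mutants it was at 0.0118, 0.0676 and 0.0665 FPKM, and in double mutants at 0.0445, 0.0587 and 0.101 FPKM. The lowest library with Zbtb24 was therefore 25-fold above the highest library without it. The mean was 63.1-fold lower in *zbtb24* mutants than in WT and 39.0-fold lower in double than in *mda5* mutants. On the log2 scale its changes were -2.70 and -2.47 with the added 0.5 FPKM, and -4.43 and -4.05 with 0.1 FPKM added instead, since the added constant outweighs levels this low. The *mda5* genotype gave no difference past the test: limma put it at -0.17 ± 0.13 SE (adjusted p = 0.535) between *mda5* mutants and WT and at 0.05 ± 0.13 SE (adjusted p = 0.866) between double and *zbtb24* mutants.

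The list of DNA methylation and ICF genes held 18 genes, of which 14 matched a single feature, and *CDCA7* was its only member of the 237. Of the other 13 tested, 2 rose and 0 fell in *zbtb24* mutants against WT at an adjusted p under 0.05 in limma (over the 21623 features tested 4.92% rose, 6.65% fell and 31.4% had an unadjusted p under 0.05). They were *ZBTB24* itself and *DNMT1*, the maintenance methyltransferase, which averaged 4.82 FPKM in WT against 7.32 FPKM without Zbtb24 (log2 difference 0.56 ± 0.09 SE, adjusted p = 0.0112). In double against *mda5* mutants 0 of the 13 passed, where 0.0832% of all features fell and 0.0509% rose and 2654 features (12.3%) had an unadjusted p under 0.05. *HELLS* averaged 2.46 FPKM in WT and 3.30 FPKM without Zbtb24 (log2 difference 0.36 ± 0.13 SE, adjusted p = 0.10). Its rise in double over *mda5* mutants, from 2.17 to 3.74 FPKM, was 0.66 ± 0.13 SE (adjusted p = 0.110). Every *HELLS* value without Zbtb24 (2.76 to 4.18 FPKM) exceeded every value with it (1.99 to 2.66 FPKM). *DNMT1* was separated the same way, at 5.99 to 7.61 FPKM without Zbtb24 against 4.40 to 5.38 FPKM with it. In the *mda5* mutant background the *DNMT1* difference was 0.29 ± 0.09 SE (adjusted p = 0.291). *cdca7b*, a gene of the same family as *CDCA7*, averaged 2.26 FPKM in WT and 2.67 FPKM without Zbtb24 (0.18 ± 0.18 SE, adjusted p = 0.519). For *cdca7b* the difference in the *mda5* mutant background was 0.43 ± 0.18 SE (adjusted p = 0.385). The de novo methyltransferase genes *dnmt3ba*, *dnmt3bb.2* and *dnmt3bb.3* and the genes *UHRF1*, *TET1*, *TET2*, *tet3* and *mbd2* had differences from -0.11 to 0.56 in *mda5* WT larvae and from -0.25 to 0.26 in *mda5* mutants.

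**Figure D1:**
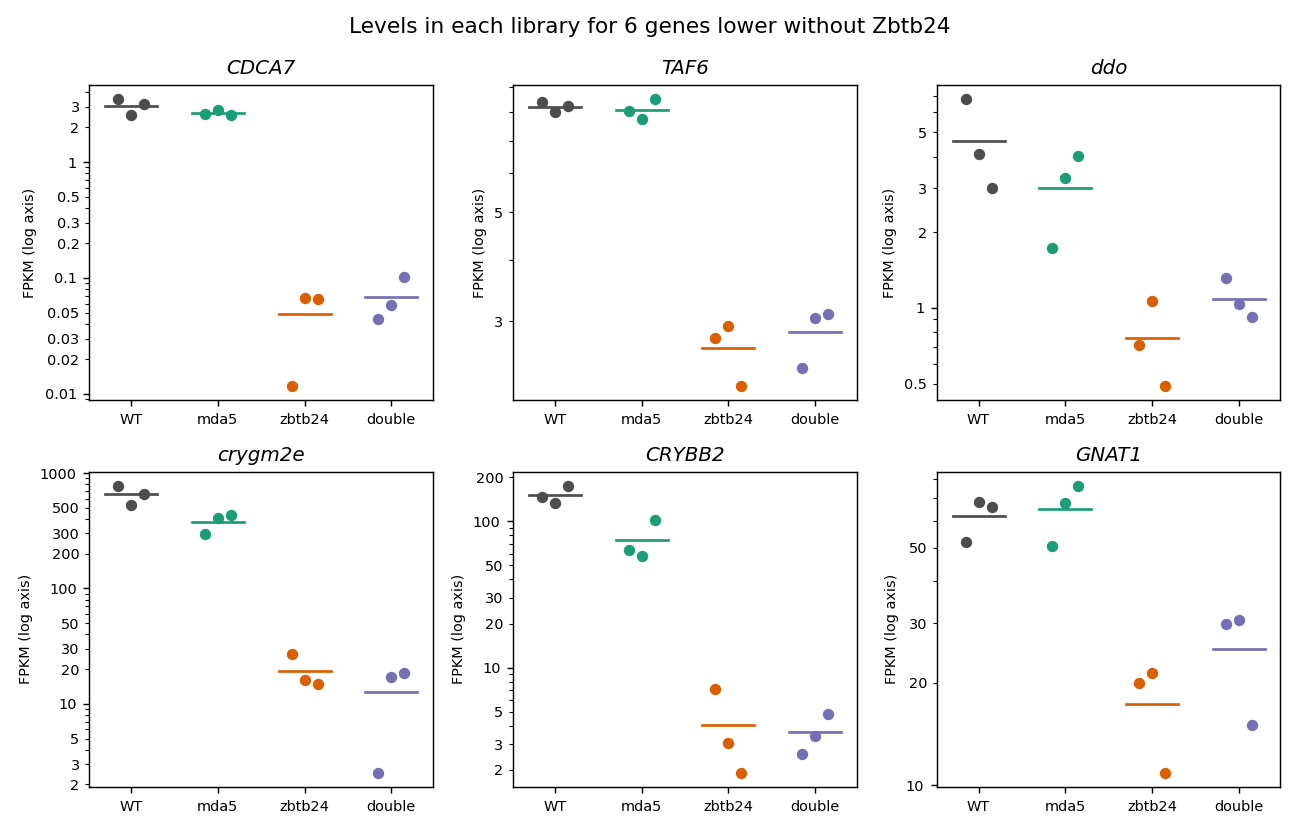
FPKM on a log axis in each of the 12 libraries for 6 genes. Points are libraries (3 pools per genotype) and bars are group means. For *CDCA7* the 6 libraries with Zbtb24 sit between 2.53 and 3.48 FPKM and the 6 without it at 0.101 FPKM or below, and *TAF6* shows the same order with little spread in any genotype.

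Lens crystallins formed the largest recognizable group. Eye genes were grouped by symbol into crystallins, other lens genes, rod genes and cone genes after the values had been seen, so these counts carry no test. Of 49 crystallin features above the 1 FPKM minimum, 33 were members (67.3%, against 1.22% of all features). They spanned 2.06 to 890 FPKM on average, and *CRYBA4* (ENSDARG00000024548), a beta crystallin, was the most abundant member of all. Their median log2 changes were -1.54 and -1.74, where the median of all 19424 features was -0.01 and 0.02. Of the 33, 30 were at least 2-fold lower in both backgrounds.

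The crystallins were not lowered equally. On the log2(FPKM + 0.5) scale, 8 of the 33 were at least 4-fold lower in both backgrounds: the gamma crystallins *crygm1*, *crygm2a*, *crygm2e*, *crygm2f*, *crygm6* and *crygmxl1* and the beta crystallins *CRYBA1* and *CRYBB2*. Their median log2 changes were -4.18 and -3.14. The other 25 had medians of -1.43 and -1.65. Over all 19424 features, 33 were lower by this much in both backgrounds, 15 of them members.

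The gene with the widest gap on that scale was *crygm2e* (ENSDARG00000044875). Its levels were 772, 529 and 663 FPKM in WT and 298, 407 and 430 FPKM in *mda5* mutants. They were 27.1, 16.2 and 14.9 FPKM in *zbtb24* mutants and 2.54, 17.1 and 18.4 FPKM in double mutants. The means were 33.8-fold lower in *zbtb24* mutants than in WT and 29.9-fold lower in double than in *mda5* mutants. The lowest library with Zbtb24 was 11-fold above the highest without.

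*crygm2a* (ENSDARG00000057536), another gamma M crystallin, was at 845, 669 and 847 FPKM in WT and at 224, 304 and 511 FPKM in *mda5* mutants. It was at 28.5, 8.92 and 15.3 FPKM in *zbtb24* mutants and at 5.80, 19.2 and 18.8 FPKM in double mutants. For this gene the *mda5* mutants were also all below WT, and the difference did not pass the test (log2 -1.26 ± 0.50 SE, adjusted p = 0.347). The same separation held for *crygm2e* above and *CRYBB2* below. It was seen for 11 of the 33 crystallin members (33.3%), compared with 13.3% of all 19424 features. *CRYBB2* (ENSDARG00000053512) was at 145, 132 and 174 FPKM in WT, at 63.7, 58.1 and 101 FPKM in *mda5* mutants, at 7.13, 3.04 and 1.92 FPKM in *zbtb24* mutants and at 2.59, 3.43 and 4.85 FPKM in double mutants. Its lowest library with Zbtb24 was 8.15-fold above its highest without. *crygm2f* (ENSDARG00000078134), at 213 to 435 FPKM with Zbtb24 and 10.4 to 44.3 FPKM without, and *CRYBA1* (ENSDARG00000041141), at 12.5 to 36.3 FPKM with and 0.623 to 3.19 FPKM without, followed with gaps of 4.81-fold and 3.93-fold.

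The crystallins with the highest mean over all 12 libraries had smaller changes. That mean takes in the 6 libraries without Zbtb24, so a strongly lowered gene ranks lower by it. In WT alone *crygm2a* (787 FPKM) averaged above the *CRYBA2* (710 FPKM) and *CRYGN* (695 FPKM) features given below, and *crygm2e* averaged 655 FPKM. *CRYBA4* was at 1880 FPKM (replicate 1), 954 and 1625 FPKM in WT and at 1205, 1306 and 983 FPKM in *mda5* mutants. It was at 519, 429 and 536 FPKM in *zbtb24* mutants and at 209, 513 and 526 FPKM in double mutants, a 3.0-fold and a 2.80-fold difference of means. *CRYBB1*, *crybb1l2* and *cryba1b*, the next 3 crystallin members by level, had changes of -1.20 and -1.41, of -1.38 and -1.42, and of -1.33 and -1.52. *CRYBA2* (ENSDARG00000041925) and *CRYGN* (ENSDARG00000030411) had -1.84 and -1.99, and -1.70 and -1.86. The alpha crystallins are small heat shock proteins that also act as chaperones. *CRYAA* (ENSDARG00000053502) was at 68.4 to 107 FPKM in WT, 55.9 to 64.9 FPKM in *mda5* mutants, 21.1 to 46.0 FPKM in *zbtb24* mutants and 9.73 to 27.8 FPKM in double mutants. Its changes, -1.43 and -1.62, were close to the medians of the family. *CRYAB* (ENSDARG00000101380), which other tissues also express, had log2 changes of -1.11 and -0.58.

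Summed over all 53 crystallin features of the table, the 3 WT libraries gave 19981, 11274 and 17620 FPKM and the 3 *mda5* mutant libraries 12997, 13440 and 10794 FPKM. The *zbtb24* mutant libraries gave 5798, 4515 and 5865 FPKM and the double mutant libraries 2062, 5086 and 5395 FPKM. Double mutant replicate 1 stood below the other 2 of its genotype, and it was the lowest of the 12 libraries for 30 of the 33 crystallin members and 12 of the 13 other lens members. Without it the median log2 change of the crystallin members in the *mda5* mutant background was -1.33 in place of -1.74. The many gamma M crystallins of the crygm2d type resemble each other closely, so the assignment of reads among these copies is uncertain, and the sum is the safer value. The family divided further among the 16 crystallin features that passed the minimum and were not members. *CRYGS* (ENSDARG00000042992), a gamma S crystallin, rose in both backgrounds (log2 1.51 ± 0.43 SE, adjusted p = 0.0459, and 3.10 ± 0.43 SE, adjusted p = 0.0234). A second *CRYGS* feature (ENSDARG00000041171) had differences of -0.65 and 1.13, neither past the test. *crygm2d6* and *crygm2d16* had log2 changes of 0.93 and 1.47 in *mda5* WT larvae and of -0.33 and -0.12 in *mda5* mutants. A further 7 of the crygm2d type were separated in *mda5* mutant larvae and not in *mda5* WT larvae. Separation in *mda5* WT larvae alone was seen for 3 crystallins, *crygm3* (-3.20 and -0.65), *CRYBB3* (-0.91 and 0.14) and *cryba1l2* (-0.74 and -0.61).

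**Figure D2:**
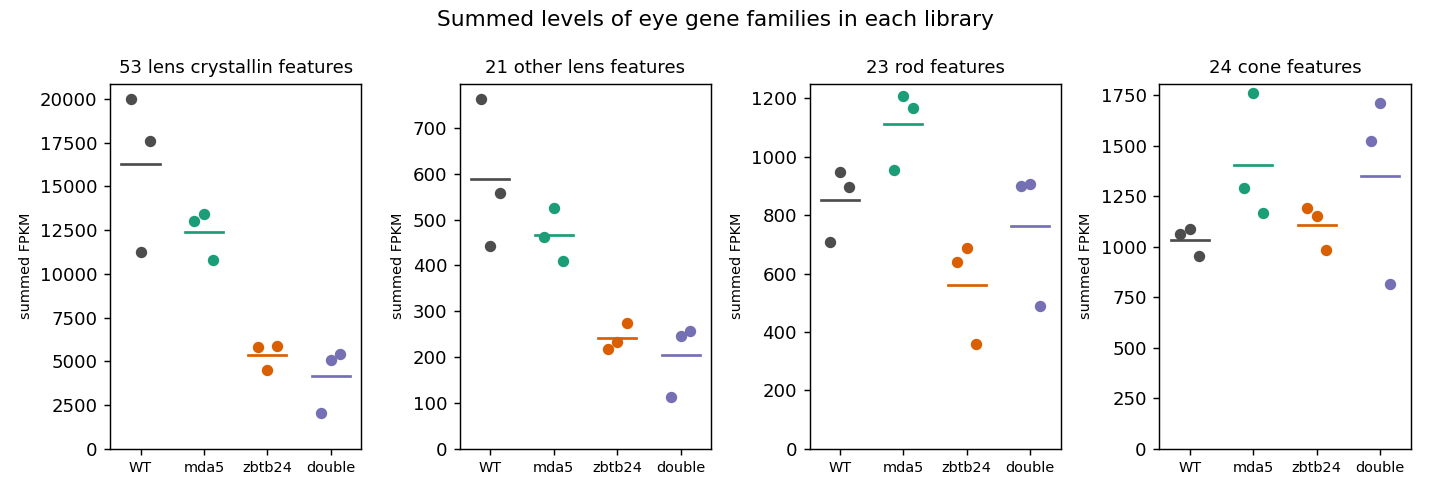
Summed FPKM of 4 eye gene families in each of the 12 libraries, on linear axes from 0. Points are libraries and bars are group means. The crystallin sums of the 6 libraries without Zbtb24 lie between 2062 and 5865 FPKM and those of the other 6 between 10794 and 19981 FPKM. The rod and cone sums of the 2 sets overlap. Within each background the rod sums do not: 707 to 948 FPKM in WT against 358 to 688 FPKM in *zbtb24* mutants, and 956 to 1208 FPKM in *mda5* mutants against 488 to 906 FPKM in double mutants. The cone sums overlap in both backgrounds.

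Other genes of the lens were low in the same libraries. Of 19 such features above the minimum, 13 were members (68.4%), with median log2 changes of -1.55 and -1.45. Among them were genes for proteins of the fiber cell membrane, cytoskeleton and junctions: 2 features named *LIM2* together with *lim2.1* and *lim2.3* (fiber membrane proteins), 2 features named *MIP* (the lens water channel), *BFSP1* (a beaded filament protein of the fiber cell), *GJA3* (a lens connexin), *LGSN* (lengsin), 2 features named *LCTL*, and *dnase1l1l*, a nuclease gene. *LGSN* (ENSDARG00000007715) was at 23, 13 and 23.5 FPKM in WT and at 16.1, 15.4 and 12.8 FPKM in *mda5* mutants. It was at 5.19, 4.39 and 4.24 FPKM in *zbtb24* mutants and at 1.89, 5.77 and 4.52 FPKM in double mutants. *LCTL* (ENSDARG00000016337) was at 4.48 to 6.85 FPKM in the 6 libraries with Zbtb24 and at 0.308 to 1.35 FPKM in the 6 without, the widest gap of this group at 3.32-fold. *LIM2* (ENSDARG00000041295) was between 15.4 and 23.9 FPKM in the 6 libraries with Zbtb24 and between 0.818 and 6.21 FPKM in the 6 without.

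The 4 lens transcription factor genes examined here, *pitx3*, *PROX1*, *foxe3* and *HSF4*, were not among the members. *pitx3* fell in *mda5* WT larvae (log2 -0.60 ± 0.14 SE, adjusted p = 0.0259) and was at 0.01 in *mda5* mutants (adjusted p = 0.983). *PROX1* had differences of -0.05 and -0.23 and passed in neither (adjusted p = 0.821 and 0.487). *foxe3* and *HSF4* averaged 0.537 and 0.674 FPKM, under the minimum, and passed in neither. Of the 8 other lens genes tested that were not members, *pitx3* was the only one that passed in *mda5* WT larvae, and 0 passed in *mda5* mutants.

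The lens members also varied together from pool to pool within a genotype. After the genotype means were taken out, the median correlation between pairs of genes over the 12 libraries was 0.78 among the crystallin members, 0.80 among the other lens members and 0.88 among the rod members, compared with 0.15 among the 182 members of no eye family. These are descriptions over libraries that share pool and depth.

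The members included rod genes and no cone genes. Of 21 rod features above the minimum, 9 were members (42.9%, against 1.22% of all features), with median log2 changes of -1.24 and -1.0. For cones it was 0 of 22 features, which is near the share of all features and so is no result about cones. Taken in each background, 22.7% and 13.6% of the cone features were separated lower, against 19.4% and 8.9% of all features. Among the 9 rod members were *GNAT1* (rod transducin), *CNGA1* and *PDE6B* (the rod channel and phosphodiesterase), *GUCA1B* (a guanylate cyclase activator), *PDC* (phosducin), *ROM1* and *rom1a* (disc rim proteins) and *NR2E3*, a nuclear receptor of rod differentiation. *GNAT1* (ENSDARG00000044199) was at 52.1, 68.0 and 66.0 FPKM in WT and at 50.6, 68.0 and 76.1 FPKM in *mda5* mutants. It was at 19.9, 21.3 and 10.9 FPKM in *zbtb24* mutants and at 29.9, 30.6 and 15 FPKM in double mutants. *GUCA1B* had changes of -1.27 and -0.82, and *NR2E3* -0.87 and -1.06.

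Of the 22 cone features tested in limma, 4 fell and 1 rose in *zbtb24* mutants against WT, where 6.65% of all features fell and 4.92% rose. Those that fell were *opn1mw3* (log2 -2.71 ± 0.65 SE, adjusted p = 0.0292) and *opn1mw1* (-1.50 ± 0.40 SE, adjusted p = 0.0408), both cone opsin genes, *GNGT2* (ENSDARG00000010680, -1.10 ± 0.28 SE, adjusted p = 0.0351) and *PDE6H* (-0.75 ± 0.18 SE, adjusted p = 0.0318). *pde6ha* rose (1.01 ± 0.23 SE, adjusted p = 0.0257), and 0 passed in *mda5* mutants. *GNGT2* and *PDE6H* were separated in each background taken alone, but not across all 12 libraries. *zbtb24* mutant replicate 3 was the lowest library for 7 of the 9 rod members and double mutant replicate 3 for the other 2. Without *zbtb24* mutant replicate 3 the median change of the rod members in the *mda5* WT background was -0.85 in place of -1.24.

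The remaining 182 members belonged to no eye family, which is 0.942% of the 19313 such features. Families were set by symbol alone, so eye genes can remain here: *zgc:153846* and *si:dkey-57a22.15* lie within a run of gamma crystallin genes, and *rgs9bp* (-0.89 and -0.84) encodes a partner of a photoreceptor signaling protein. Most differed little: their median log2 changes were -0.66 and -0.33, and 19 were at least 2-fold lower in both backgrounds, compared with 44 of the 55 eye genes. The gap itself was also narrow. For 87 of the 182 the lowest library with Zbtb24 was less than 5% above the highest without, and the median ratio was 1.053, compared with 1.66 for crystallins and 1.71 for other lens genes. Only 7 of them were separated at least 2-fold, *CDCA7*, *zgc:153846*, *si:ch211-255g12.6*, *gatd3l*, *TAF6*, *ntrnl4* and *spink2.2*.

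**Figure D3:**
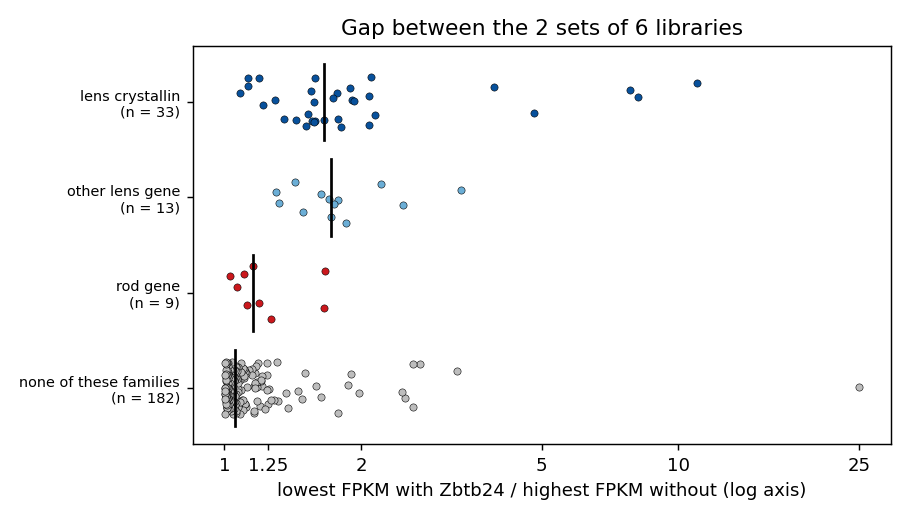
Ratio of the lowest FPKM among the 6 libraries with Zbtb24 to the highest among the 6 without, on a log axis, for each of the 237 genes by family. Vertical bars are medians (1.66 for crystallins, 1.71 for other lens genes, 1.16 for rod genes and 1.053 for the remaining 182), and the point at 25 is *CDCA7*.

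*TAF6* (ENSDARG00000102998), a subunit of the general transcription factor TFIID, varied little within genotypes. It was at 8.39, 8.00 and 8.23 FPKM in WT and at 8.02, 7.76 and 8.49 FPKM in *mda5* mutants. It was at 2.78, 2.94 and 2.22 FPKM in *zbtb24* mutants and at 2.42, 3.05 and 3.10 FPKM in double mutants. The group means with SD (n = 3 each) were 8.21 ± 0.20, 8.09 ± 0.37, 2.65 ± 0.38 and 2.86 ± 0.38 FPKM, a 3.10-fold and a 2.83-fold difference. As with *CDCA7*, the *mda5* genotype gave no difference past the test in either *zbtb24* background (limma, adjusted p = 0.949 and 0.691).

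Further regulators, picked after their values had been seen, were *ZNF687* (ENSDARG00000019299), a zinc finger gene, and *FBXO45* (ENSDARG00000071492), which encodes a substrate receptor of a ubiquitin ligase. *ZNF687* was at 3.43, 4.03 and 3.41 FPKM in WT, at 4.11, 4.16 and 4.04 FPKM in *mda5* mutants, at 1.68, 1.80 and 1.44 FPKM in *zbtb24* mutants and at 0.986, 1.40 and 1.64 FPKM in double mutants. *FBXO45* averaged 6.61 ± 0.09 FPKM in WT, 6.29 ± 0.36 FPKM in *mda5* mutants, 3.19 ± 0.87 FPKM in *zbtb24* mutants and 2.67 ± 1.11 FPKM in double mutants (SD, n = 3 each). Both were a little lower in double than in *zbtb24* mutants on average.

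Several members without a descriptive name had large changes. *zgc:153846* (ENSDARG00000040738) was at 889, 584 and 782 FPKM in WT and at 450, 543 and 552 FPKM in *mda5* mutants. It was at 167, 98.3 and 153 FPKM in *zbtb24* mutants and at 28.4, 146 and 157 FPKM in double mutants. *si:ch211-255g12.6* (ENSDARG00000094310) gave means of 385 and 292 FPKM with Zbtb24 and 84.8 and 58.9 FPKM without. The feature ENSDARG00000078876, which has no symbol, gave means of 483 and 277 FPKM with and 55.4 and 47.3 FPKM without. Double mutant replicate 1 was the lowest library for all 3, as it was for most crystallins.

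The fixed lists of fast skeletal muscle (11 genes asked, 4 tested), heart muscle (6 and 2) and intestine (8 and 5) had 0 members among their matched genes. Many symbols matched no feature, *acta1b* of the fast muscle list among them, and whether *ACTA1* below is that gene was not checked. Of the genes tested 0 fell in either background. The fast muscle and intestine medians were -0.42 and -0.64 in *mda5* WT larvae and 0.46 and 0.22 in *mda5* mutants. The members below are given as single genes, since these lists covered too few genes to speak for a tissue. *ACTA1* (ENSDARG00000055618), a sarcomeric actin gene, was at 706, 819 and 1189 FPKM in WT, at 818, 732 and 774 FPKM in *mda5* mutants, at 201, 397 and 17.2 FPKM in *zbtb24* mutants and at 230 (replicate 1), 391 and 371 FPKM in double mutants. *zbtb24* mutant replicate 3 was far under the other 2 libraries of its genotype, so the log2 change of -2.97 in *mda5* WT larvae rests in part on this pool, and that in *mda5* mutants was -1.26. *fabp1b.2* (ENSDARG00000103398), which encodes a fatty acid binding protein, had log2 changes of -4.24 and -2.83. It varied widely within genotypes, from 22.7 to 122 FPKM in WT and from 0.0471 to 6.56 FPKM in *zbtb24* mutants, and its 2 sets of libraries came within 1.01-fold of each other. *spink2.2* (ENSDARG00000103833), a gene of the Kazal type protease inhibitors, was at 1.38 to 2.60 FPKM with Zbtb24 and at 0.423 FPKM or less without, and *zbtb24* mutant replicate 3 was listed at 0. It was the only member with a library at 0.

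The red blood cell list also had 0 members among its matched genes. Of its 6 genes 2 were tested, *alas2* and *hbaa1*, and both fell in *mda5* WT larvae (log2 -1.67 ± 0.32 SE, adjusted p = 0.0158, and -8.43 ± 1.53 SE, adjusted p = 0.0142). In *mda5* mutants both differences were also below 0 and neither passed (log2 -0.30 ± 0.32 SE, adjusted p = 0.730, and -2.24 ± 1.53 SE, adjusted p = 0.569). Outside that list, *gata1a* (ENSDARG00000013477), the master regulator of erythroid development, was at 1.77, 1.08 and 1.40 FPKM in WT, 1.46, 1.33 and 1.09 FPKM in *mda5* mutants, 0.776, 0.784 and 0.705 FPKM in *zbtb24* mutants and 1.06, 0.912 and 0.919 FPKM in double mutants. *cahz* (carbonic anhydrase of the red cell) had log2 changes of -1.28 and -0.45, and *uros* (a heme synthesis enzyme) had -0.62 and -0.20. Both were picked after their values had been seen.

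Other members, again named after their values had been seen, were regulators and structural genes with modest changes. Among transcription factor genes, *EOMES* had changes of -1.25 and -0.46, *BNC1* -0.93 and -0.17, *BCL6B* -0.91 and -0.29, *BARX2* -0.80 and -0.47, *TFAP2A* -0.63 and -0.33 and *GATA2* -0.25 and -0.28. *EOMES*, a T-box factor, was at 5.41 to 6.48 FPKM in WT, 3.58 to 4.86 FPKM in *mda5* mutants, 2.07 to 2.40 FPKM in *zbtb24* mutants and 2.50 to 3.40 FPKM in double mutants. Chromatin genes were *h2af1al* (a histone H2A variant gene by name) with -0.84 and -1.19, *H3-3B* (histone H3.3) with -0.66 and -0.38, *hmgn3* (a nucleosome binding protein) with -0.51 and -0.66 and *HMGB3* (ENSDARG00000006408) with -0.56 and -0.23. *h2af1al* and *hmgn3* had the larger change in *mda5* mutants, and the other chromatin genes here in *mda5* WT larvae.

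The liver list (10 genes asked and tested) and the cartilage and bone list (10 asked, 6 tested) had 0 members among their matched genes. Their medians were -0.78 and -1.62 in *mda5* WT larvae and 0.44 and 0.06 in *mda5* mutants. In *mda5* WT larvae 2 of the 6 cartilage and bone genes fell in limma, *bglap* (log2 -2.16 ± 0.62 SE, adjusted p = 0.0475) and *COL1A2* (-2.26 ± 0.64 SE, adjusted p = 0.0475). Of the same 6, 1 rose, *acana* (0.99 ± 0.26 SE, adjusted p = 0.0406), and 0 passed in *mda5* mutants. The following members were picked in the same way and are single genes. *F9*, clotting factor IX, was at 13.8 to 18.2 FPKM in WT, 11.2 to 15.4 FPKM in *mda5* mutants, 5.90 to 10.6 FPKM in *zbtb24* mutants and 5.63 to 9.87 FPKM in double mutants, with changes of -1.06 and -0.81. *OTC*, a urea cycle enzyme, had -1.12 and -0.78. *LUM* (lumican, a collagen binding proteoglycan) was at 80.2 to 146 FPKM in WT, 55.7 to 104 FPKM in *mda5* mutants, 9.28 to 45.0 FPKM in *zbtb24* mutants and 44.0 to 52.4 FPKM in double mutants. Its changes of -2.17 and -0.51 were far apart, and *zbtb24* mutant replicate 3 was again the lowest library. *AXIN2*, a feedback target of Wnt signaling, had -0.60 and -0.13.

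Some pools stood out among these 182 genes as well. *zbtb24* mutant replicate 3 was the lowest of the 12 libraries for 103 of them and double mutant replicate 1 for 32. Without the former their median change in the *mda5* WT background was -0.60 in place of -0.66, and without the latter their median change in the *mda5* mutant background was -0.32 in place of -0.33. The part of these pools in the differences between genotypes was not tested.

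The 2 backgrounds were then set side by side. In *mda5* WT larvae 3777 features (19.4%) had all 3 *zbtb24* mutant libraries below all 3 WT libraries, and in *mda5* mutant larvae 1728 (8.90%) had all 3 double mutant libraries below all 3 *mda5* mutant libraries. The 353 features in both lists (1.82% of all) made up 9.35% of the first and 20.4% of the second, shares close to the 8.90% and 19.4% of all features. For the features of no eye family the shared 291 were 7.85% of one list and 17.6% of the other, against 8.56% and 19.2% of those features. Crystallins had far higher shares in each list: 73.5% of their 49 features were lower in *mda5* WT larvae and 81.6% in *mda5* mutants. The 33 crystallins in both lists were 91.7% of the first and 82.5% of the second, against 81.6% and 73.5% of all 49. The 237 members are those of the 353 in which the separation also held across backgrounds.

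Over the 237 genes the median log2 change was -0.81 in *mda5* WT larvae and -0.46 in *mda5* mutant larvae, and 168 had the larger change in *mda5* WT larvae. Outside the eye families 145 of 182 did. Among the crystallins 11 of 33 did, but that count rested on single pools: without double mutant replicate 1 it was 30 of 33, and without WT replicate 2 it was 26 of 33. The members with the greatest difference toward *mda5* WT larvae were *crygm6* (log2 changes -5.85 and -2.30), *crygm7* (-3.83 and -1.83) and *ACTA1* (-2.97 and -1.26). Those with the greatest difference the other way were *si:ch211-198i6.4* (-1.43 and -2.28), *crygm2d11* (-1.52 and -2.31) and *crygm2d1* (-0.90 and -1.44).

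**Figure D4:**
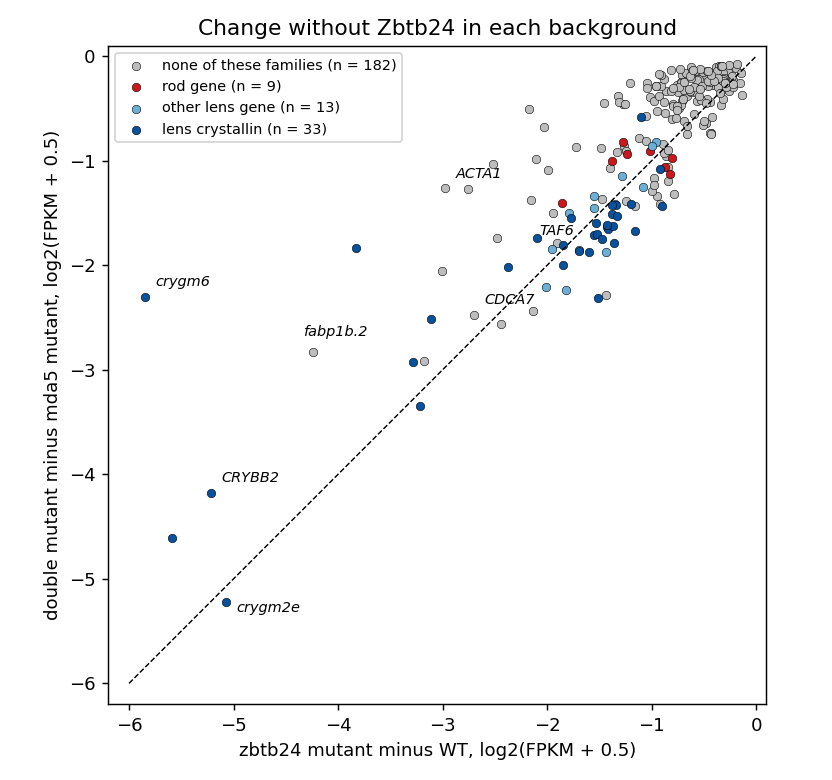
Log2 change of each of the 237 genes between *zbtb24* mutants and WT (horizontal) and between double and *mda5* mutants (vertical), as differences of mean log2(FPKM + 0.5). Each point is a gene, colored by family, and the dashed line marks equal change. The 182 genes of no eye family gather toward the upper right corner with medians of -0.66 and -0.33, and 8 crystallins are below -2 on both axes.

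The difference between the backgrounds was tested gene by gene with the interaction term of limma over all 21623 features. It was above 0 for 168 of the 237 genes (70.9%) and 0 passed an adjusted p of 0.05, with 39 (16.5%, all above 0) at an unadjusted p under 0.05. Over all features it was above 0 for 53.2%, 0 passed (0% in either direction), and 25.1% had an unadjusted p under 0.05 (11.8% below 0 and 13.3% above). The rule chose the members by these same values and asked for lower levels in both backgrounds, which bounds the difference between them. The counts over members are therefore descriptions. The smallest adjusted p among the members was 0.0943, for *capsla* (0.94 ± 0.18 SE) and *pvalb5* (1.12 ± 0.22 SE). *pvalb5* (ENSDARG00000032836), a parvalbumin, was at 42.3, 29.7 and 41.9 FPKM in WT, 25.1, 30.4 and 24.7 FPKM in *mda5* mutants, 8.20, 8.96 and 7.92 FPKM in *zbtb24* mutants and 12.2, 12.2 and 15.5 FPKM in double mutants. Without WT replicate 2, 10 of the 237 genes and 2128 features passed the interaction test. For *crygm6* the interaction was 3.55 ± 0.97 SE (adjusted p = 0.102).

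The *mda5* genotype was tested in the same fit. Between *mda5* mutants and WT 0 of 237 passed, where 0.00462% of all features fell and 0% rose, and 24 members (22 lower and 2 higher) had an unadjusted p under 0.05, compared with 13.6% of all features. Between double and *zbtb24* mutants 0 passed, where again 0.00462% fell and 0% rose, and 30 (3 lower and 27 higher) had an unadjusted p under 0.05, compared with 14.4%. The rule bears on these tests too, since all *mda5* mutant libraries of a member had to lie above all libraries without Zbtb24, and all double mutant libraries below all libraries with it. The crystallin members were mostly lower on average without Mda5 in both backgrounds, none past the test: 32 of 33 had a lower mean in *mda5* mutants than in WT (median log2 -0.35) and 30 of 33 in double than in *zbtb24* mutants (median -0.47). The latter rested on double mutant replicate 1, without which it was 20 of 33 and the median -0.02. The former was 29 of 33 with a median of -0.18 without WT replicate 1, and 33 of 33 with -0.60 without WT replicate 2. Of all features tested, 53% were lower in *mda5* mutants than in WT and 47% in double than in *zbtb24* mutants. For all 237 members the shares were 77.2% and 36.3%. The crystallin members varied together between pools, so these counts are not of independent genes. All 9 rod members were higher on average without Mda5 in both comparisons (medians 0.22 and 0.43), as were 47% and 53% of all features. The rod members also varied together between pools (median correlation 0.88), so the 9 are not independent either. The medians stayed above 0 with any 1 library left out, the lowest being 0.14 without *mda5* mutant replicate 2 and 0.14 without *zbtb24* mutant replicate 3. Without WT replicate 1, 3 of the 9 were lower in *mda5* mutants than in WT. Without double mutant replicate 2, 2 were lower in double than in *zbtb24* mutants. Summed cone values were also higher on average without Mda5, at 1406 against 1035 FPKM in WT and at 1352 against 1110 FPKM in *zbtb24* mutants. The largest difference named here was that of *crygm6* (ENSDARG00000040735), a gamma crystallin, at 49.8, 125 and 104 FPKM in WT and 7.14, 7.55 and 43.7 FPKM in *mda5* mutants (log2 -2.64 ± 0.69 SE, adjusted p = 0.284).

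The fixed lists held 242 genes in 20 lists, of which 169 matched 1 feature. *CDCA7*, *GNAT1* and *GUCA1B* were the members among them. Of the 156 matched and tested genes that were not members, 9 (5.77%) fell and 17 (10.9%) rose in *mda5* WT larvae, where 6.65% and 4.92% of all features did, and 0 passed in *mda5* mutants. The interferon and RNA sensing list gave 10 that rose and 0 that fell of 19, and none of them was a member. The 17 genes of cell division and DNA replication and the 15 of ribosome and translation tested gave 0 that fell, and the liver list gave 2 that fell of 10, *FGB* (log2 -1.21 ± 0.24 SE, adjusted p = 0.0171) and *RBP4* (-0.74 ± 0.18 SE, adjusted p = 0.0335).

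Position along the chromosome was examined by gene order in the RefSeq annotation of the GRCz12tu assembly, which is not the assembly of the expression table. Symbols placed 13421 features above the 1 FPKM minimum, including 163 members. Of these members 24 (14.7%) had another member as the next placed gene, compared with 2.32% of all placed genes. Eye genes accounted for 20 of the 24, and members of no eye family gave 4 of 125 (3.20%). The longest run held 9 members in a row: *crygm6*, *si:dkey-57a22.15*, *crygm1*, *zgc:153846*, *crygmxl1*, *crygm2a*, *crygm2e*, *crygm2d13* and *crygm2d11*. A second run held 5, *crygm2d10*, *crygm2d2*, *crygm2d1*, *crygm2f* and *crygm5*. The strongly and the weakly lowered crystallins stood next to each other within these runs. In the first, *crygm2e* (-5.07 and -5.22) was followed by *crygm2d13* (-1.37 and -1.62).

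**Figure D5:**
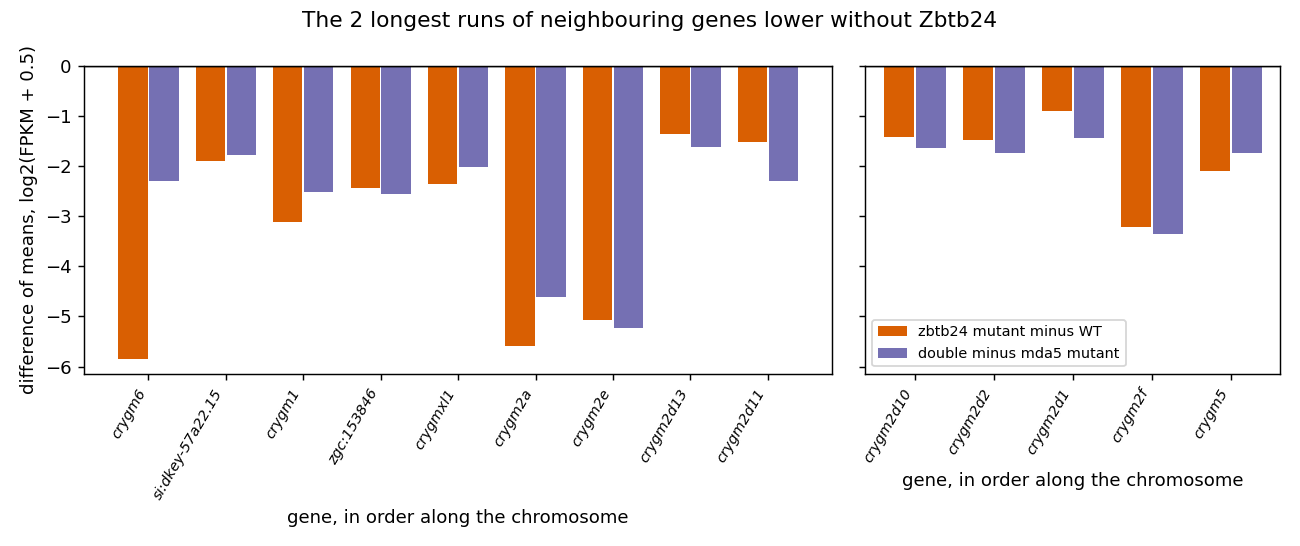
Log2 change between *zbtb24* mutants and WT (orange) and between double and *mda5* mutants (purple) for the 9 and 5 members of the 2 longest runs, in gene order along the chromosome. Bars start at 0. Changes of -5.07 and -5.22 for *crygm2e* stand beside -1.37 and -1.62 for *crygm2d13*.

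Next to *zbtb24* itself in this order lay a member, *ddo* (ENSDARG00000079664), which encodes D-aspartate oxidase. It was the only member among the 100 placed genes within 50 on either side, and the next, *kiz*, was 343 placed genes away. That is near the share over all placed genes, of which 163 of 13421 were members. Genes that could not be placed or were under the minimum are not part of this order. *ddo* was at 6.77, 4.09 and 3.01 FPKM in WT and at 1.73, 3.29 and 4.02 FPKM in *mda5* mutants. It was at 0.715, 1.06 and 0.490 FPKM in *zbtb24* mutants and at 1.31, 1.03 and 0.924 FPKM in double mutants. Its changes were -1.99 and -1.09, and WT replicate 1 was the highest library.

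The edge of the set was soft. The members with the narrowest gap were *pitpnbl* (ENSDARG00000015310), *IFT52* and *si:dkey-240n22.10*, and for *pitpnbl* the lowest library with Zbtb24 was 20.3 FPKM and the highest without it also rounded to 20.3 FPKM. Just outside, *insl5a*, *crygm2d14* and *NRGN* overlapped by less than the rounding of the printed values. Features such as *mirlet7a-1* and *MIR92A1*, whose number was not counted, were listed at 0 in all 6 libraries without Zbtb24 and in several with it. On the expression axis, *gata1a*, *spink2.2* and *cimip5* had means just over 1 FPKM, and *cdh31*, *ugt5d1* and *si:ch211-191j22.8* just under it, among 56 separated features that missed the minimum. With a gap of at least 25% 67 members remained, and they were 28 crystallins, 13 other lens genes, 3 rod genes and 23 others.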

How the data were processed

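Polyadenylated RNA from 12 pools of larvae was measured by paired-end sequencing. Per the labels and the study's methods, the authors trimmed reads (Trimmomatic 0.33), mapped them (TopHat 2.1.1, GRCz10) and estimated FPKM with Cufflinks 2.2.1, scaled between libraries with Cuffnorm, and the deposited table holds these FPKM values. The depth of each single library is not part of these values, so precision rests on the spread between the 3 libraries of a genotype. No counting interval is given. All sample columns were used (0 left out).

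Groups and replicate numbers came from the labels. Symbols came from a gene name table, which named 26418 of 32271 features and 227 of the 237 members; 45 members share their symbol with another feature, and those whose values are printed carry an identifier. Reads of near-identical genes may be split among copies. The members, the 20 fixed lists and the eye families were chosen with earlier results of these data known. Named genes were the targeted and methylation genes, the 20 members with the largest gap, the 10 with the lowest changes, the 5 most abundant, the 3 with the greatest difference between backgrounds each way, list members, the edge of the set and the nearest to *zbtb24*; others were chosen after their values were seen, as stated.

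Effects of *mda5*, the interaction and the lists were tested with limma 3.58.1 in R 4.3.3 on log2(FPKM + 0.5), over 21623 features averaging 0.5 FPKM or more, with 4 genotype means, a mean-variance trend, two-sided tests and Benjamini-Hochberg adjustment at 0.05. A fold on this scale understates the change of low genes. On simulated data with 200 changed genes the fit recovered 61.5% of 2-fold and 92.5% of 4-fold changes between *mda5* mutants and WT, 65.0% and 93.0% between double and *zbtb24* mutants, and 34.0% and 87.0% of interactions. Each run also gave 5 to 16 false calls. The 200 genes were drawn from all features, and each simulated gene varied independently of the others. The shares are therefore averages over all features. They do not give the recovery for genes that varied together or widely between pools, as the crystallin members did. Gene order came from RefSeq on GRCz12tu and no coordinates are given. Alternatives changed the minimum level, the pseudocount, the scaling, the gap, the fit and the libraries. A planned search of promoters for motifs was not run. Values of a few genes are not reported here.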

Additional observations from a re-analysis of the deposited data

How the results depend on the processing

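The number of genes in the set depends on the minimum level, the gap and single libraries. With a minimum mean of 5 FPKM there were 154 members, 779 features lower in *mda5* mutant larvae and 217 lower in both backgrounds taken separately. With a gap of at least 25% there were 67 members, 979 features lower in *mda5* WT larvae, 216 in *mda5* mutant larvae and 83 in both. Leaving out 1 library at a time gave 258 to 455 members, 3773 to 5345 features lower in *mda5* WT larvae, 1714 to 3524 in *mda5* mutant larvae and 398 to 633 in both, since fewer libraries have to be separated. Members passed 1.5 times their number without WT replicate 1 (373) and without double mutant replicate 1 (455), features lower in *mda5* mutants without *mda5* mutant replicate 1 (2848), double mutant replicate 1 (2628) and double mutant replicate 3 (3524), and features lower in both without *mda5* mutant replicate 3 (541) and double mutant replicate 1 (633). The crystallin members numbered 33 to 38 in these 12 sets. The median change over members ranged from -0.87 to -0.64 in *mda5* WT larvae and from -0.46 to -0.34 in *mda5* mutants, and the median difference between them from 0.14 to 0.30. Interaction calls ranged from 0 to 10, with 10 without WT replicate 2. Quantile normalization gave 265 members (204 shared) and median centring 243 (221 shared).

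Whether replicate numbers pair the samples was not settled. Same-numbered libraries correlated between -0.078 and 0.18, over 0.1 in 2 of 12 pairs, and no value for differently numbered libraries is given. The summed cone values were lowest in replicate 3 of every genotype. With a replicate block, 0 members passed in the 3 tests, as without it. For the 20 members with the largest gap, 640 values were computed under alternatives. Of these, 620 moved by less than the spread between replicates, 20 moved further and 0 reversed. The rule keeps the changes of these genes below 0 when a library is left out or the pseudocount is changed. The absence of reversals was therefore largely fixed in advance and carries no support. The planned promoter motif search was not run. The depth of each single library is not part of the values used, so no limit of detection is given. The *mda5* differences by gene family with 1 library left out were computed after seeing the data.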
